A study of Mus musculus with 10 samples.

Results

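The transcription factor gene Foxn1 and 3 genes of the thymic cortex, Prss16, Tbata and Cd83, were followed as raw counts in mice that carry a Foxn1 mutation and in nude mice. These 4 genes were taken by symbol from the 15790 genes of the deposited table, and all 4 passed the filter on low counts that left 12912 genes to test, Foxn1 and Cd83 through the AR3_het libraries. The question was how much expression of each gene remains in the mutant compared with nude. The libraries are bulk MARS-seq of sorted thymic epithelial cells (TEC), a method that counts the 3′ ends of transcripts. AR3_mut is the Foxn1 del AR3 mutant, with 3 libraries from C57BL/6 mice labelled 4.5 weeks of age. Nude is nu/nu, with 4 libraries from ICR mice labelled 5 weeks. AR3_het is the heterozygous control of the del AR3 line, with 3 libraries from C57BL/6 mice of 4.5 weeks. It carries the deletion on one allele, and no wild type was analysed here, so residual expression is given relative to the heterozygote. Genotype, strain and age change together between nude and the other groups and cannot be told apart. Nothing in the labels ties a library to an animal, and p-values therefore reflect the spread between libraries, which may be technical.

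Foxn1 encodes a forkhead protein on which TEC differentiation depends, and the nu allele disrupts it. Prss16 encodes a serine protease of cortical TEC that takes part in making the class II peptides on which CD4 T cells are selected. Tbata, also called Spatial, is a gene of thymus, brain and testis. Cd83 encodes a surface protein that keeps MHC class II on the cell by opposing the ubiquitin ligase March8, and TEC, activated dendritic cells and B cells carry it. Foxn1 protein binds DNA through a short core, GACGC.

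All 4 genes are protein coding, and none overlaps another annotated gene in GENCODE M21 on GRCm38. Foxn1 lies at chr11:78357577-78386558 on the minus strand, Prss16 at chr13:22002173-22009742 on the minus strand, Tbata at chr10:61171954-61188841 on the plus strand and Cd83 at chr13:43784775-43803132 on the plus strand. Promoter windows of 300 bases, from 250 before to 50 after the RefSeq start on GRCm38.p6, were at hand for 2 of the 4 genes. These were the windows of Foxn1, the mutated gene, and of Tbata. None was at hand for Prss16 or Cd83. The 50 bases from the start onward are in capitals. The Foxn1 window is chr11:78386559-78386858 on the minus strand and the Tbata window chr10:61171714-61172013 on the plus strand.
Foxn1: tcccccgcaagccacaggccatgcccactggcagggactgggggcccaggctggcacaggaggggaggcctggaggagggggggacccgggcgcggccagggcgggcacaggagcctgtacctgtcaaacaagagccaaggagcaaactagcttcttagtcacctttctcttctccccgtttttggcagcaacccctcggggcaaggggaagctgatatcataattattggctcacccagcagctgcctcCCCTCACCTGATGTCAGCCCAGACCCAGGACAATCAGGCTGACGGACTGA
Tbata: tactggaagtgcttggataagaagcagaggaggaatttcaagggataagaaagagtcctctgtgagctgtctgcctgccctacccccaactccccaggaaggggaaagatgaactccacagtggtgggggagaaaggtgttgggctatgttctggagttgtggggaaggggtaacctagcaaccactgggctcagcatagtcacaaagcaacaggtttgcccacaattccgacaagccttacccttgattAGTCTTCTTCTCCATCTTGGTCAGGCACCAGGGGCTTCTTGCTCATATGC
GACGC, read on both strands, occurs 0 times in the Foxn1 window and 0 times in the Tbata window, and it occurs in 27.2% of the 32851 RefSeq promoter windows of the same length. Its absence says only that these letters are not in these windows. The Foxn1 window holds 62.7% G and C and the Tbata window 51.7%, against a median of 52.7% over all windows.

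Library totals ran from 1056066 to 2667973 counts in AR3_mut, from 1901282 to 3302161 in nude and from 2948283 to 4175851 in AR3_het. In a library, 3 counts stand for 0.718 to 2.84 CPM, the count scaled to the library total, so levels of a few CPM rest on single counts. The sorted tissue was checked with 12 epithelial genes led by Krt18, Krt8 and Krt19. They took 0.252 to 0.569% of the counts in AR3_mut, 0.597 to 0.797% in nude and 0.865 to 1.22% in AR3_het, so epithelial RNA was present in every library. Endothelial markers, led by Plvap, Eng and Cldn5, took 0.626 to 0.795% in AR3_mut, 0.13 to 0.254% in nude and 0.0227 to 0.0288% in AR3_het. Fibroblast and pericyte markers, led by Sparc, Dcn and Col1a1, took 0.635 to 0.997% in AR3_mut, 0.718 to 1.5% in nude and 0.0414 to 0.075% in AR3_het. The share of other cell types therefore moved with the groups, and its part in the results below was not tested. In bulk libraries fewer cells of a type and less RNA per cell cannot be told apart.

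Foxn1 itself was nearly silent in both mutants and did not separate them. The raw counts of Foxn1 were 4, 2 and 2 in AR3_mut 1 to 3, 4, 3, 1 and 2 in nude 1 to 4, and 1844, 1046 and 1711 in AR3_het 1 to 3. Scaled by edgeR's TMM factors these are 1.56, 1.15 and 1.98 CPM in AR3_mut, 1.44, 1.23, 0.551 and 0.816 CPM in nude, and 380, 316 and 366 CPM in AR3_het. The AR3_mut and nude libraries overlap, and every AR3_het library lies far above both. The residual level was 0.442 ± 0.117% of the AR3_het mean in AR3_mut (SD, n = 3) and 0.285 ± 0.113% in nude (SD, n = 4). AR3_mut over nude gave a log2 fold change of 0.51 in edgeR's quasi-likelihood test with Benjamini-Hochberg adjustment (SE 0.41, adjusted p = 0.685). On pooled counts, 8 in AR3_mut and 10 in nude, the ratio was 1.43 with a 95% counting interval of 0.49 to 4.02, so a difference within that interval was not detectable at this depth. The position of AR3 is not stated in the labels, and the nu allele need not remove the transcript, so Foxn1 counts do not check either mutation.

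**Figure D1:**
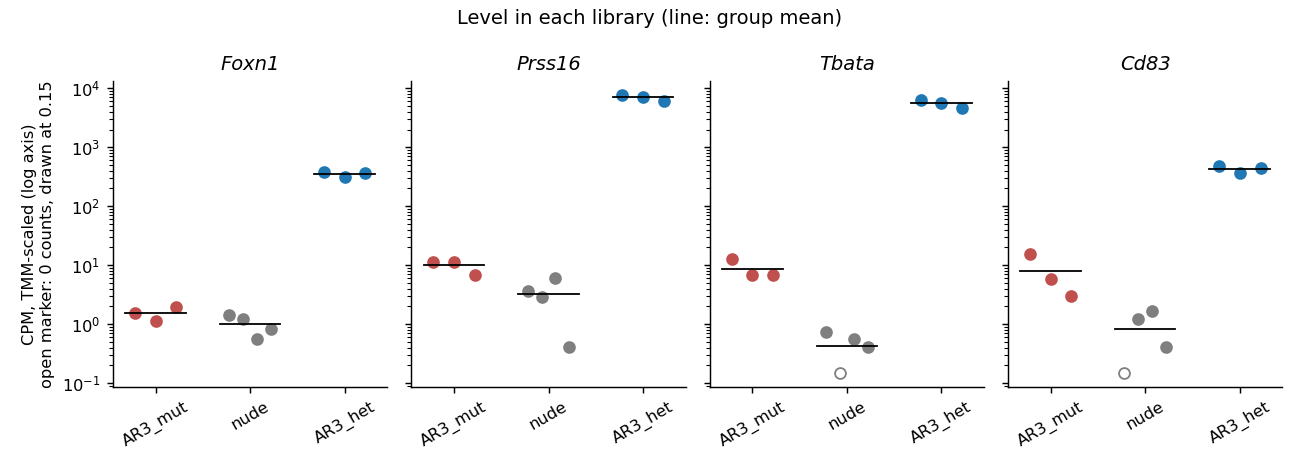
Level of each gene in every library in CPM (log axis), with AR3_mut left of nude and AR3_het at the right; lines are group means and open markers are libraries with 0 counts, drawn at 0.15. Foxn1 overlaps between AR3_mut and nude, whereas the AR3_mut libraries of Prss16, Tbata and Cd83 lie above every nude library and in both mutants all 4 genes lie far below AR3_het.

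Prss16, the protease gene, kept a low level that was higher in AR3_mut than in nude. Its raw counts were 29, 20 and 7 in AR3_mut 1 to 3, 10, 7, 11 and 1 in nude 1 to 4, and 37549, 23871 and 28970 in AR3_het 1 to 3. The levels were 11.3, 11.5 and 6.94 CPM in AR3_mut, 3.6, 2.88, 6.06 and 0.408 CPM in nude, and 7738, 7207 and 6191 CPM in AR3_het. The groups did not overlap, but the lowest AR3_mut library (6.94 CPM) was close to the highest nude library (6.06 CPM). The log2 fold change of AR3_mut over nude was 1.69 (SE 0.48, edgeR, adjusted p = 0.0425), a ratio of 3.45 on pooled counts (95% counting interval 2.16 to 5.6). The call stands near the threshold: it was lost in 10 of 17 alternative analyses, with adjusted p between 0.00032 and 0.131 over all of them, while the log2 fold change stayed between 1.30 and 2.11. Without nude 4, whose single count is the lowest, the log2 fold change was 1.31 (adjusted p = 0.029). Without nude 3, whose level is the highest, it was 2.11 (adjusted p = 0.0105).

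Tbata showed the widest gap between the mutants. Library by library, raw counts were 32, 12 and 7 in AR3_mut 1 to 3, 2, 0, 1 and 1 in nude 1 to 4, and 31069, 18478 and 21690 in AR3_het 1 to 3. The levels were 12.5, 6.92 and 6.94 CPM in AR3_mut, 0.72, 0, 0.551 and 0.408 CPM in nude, and 6403, 5579 and 4635 CPM in AR3_het. Every AR3_mut library stood well above every nude library, and AR3_mut 1 was the highest of them. The log2 fold change of AR3_mut over nude was 4.29 (SE 0.47, adjusted p = 0.000539), and 79 of the 12912 tested genes had a larger one. On pooled counts, 51 in AR3_mut and 4 in nude, the ratio was 22.8 with a wide counting interval of 8.37 to 86.7. On the log2 scale that interval runs from 3.06 to 6.44, so the SE of the fit is smaller than counting error. The call held in all 17 alternatives, with log2 fold changes of 3.90 to 4.73.

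Cd83, the class II stabiliser, was also higher in AR3_mut than in nude, but unevenly. Raw counts were 40, 10 and 3 in AR3_mut 1 to 3, 0, 3, 3 and 1 in nude 1 to 4, and 2373, 1228 and 2056 in AR3_het 1 to 3. The levels were 15.6, 5.77 and 2.97 CPM in AR3_mut, 0, 1.23, 1.65 and 0.408 CPM in nude, and 489, 371 and 439 CPM in AR3_het. AR3_mut 1 alone held most of the counts: spread by depth, the 53 counts would have fallen as 25.6, 17.3 and 10.1. The log2 fold change of AR3_mut over nude was 3.52 (SE 0.67, adjusted p = 0.00757), a ratio of 13.5 on pooled counts (95% counting interval 6.12 to 35.2). Without AR3_mut 1 the log2 fold change was 2.56 (adjusted p = 0.0487), the pooled ratio 6.42 (2.38 to 19) and the residual level 1.01% of AR3_het.

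Of the 4 genes, 3 were higher in AR3_mut than in nude and 0 were lower, where 7.6% of the 12912 tested genes were called higher, 3.71% lower and 11.3% in either direction. The libraries of these 3 genes did not overlap, and for 12% of tested genes every AR3_mut library lay above every nude library (20.7% did not overlap in either direction). The median log2 fold change over all tested genes was 0.00. The comparison named Foxn1_ATAC against nude in the authors' deposited table lists log2 fold changes of 0.51 for Foxn1, 1.74 for Prss16, 4.45 for Tbata and 3.54 for Cd83. That name was taken as AR3_mut because nude and Het name the other groups.

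Residual expression relative to AR3_het differed by gene. In AR3_mut it was 0.442 ± 0.117% for Foxn1, 0.141 ± 0.0367% for Prss16, 0.158 ± 0.0577% for Tbata and 1.87 ± 1.53% for Cd83 (SD, n = 3). In nude it was 0.285 ± 0.113% for Foxn1, 0.0459 ± 0.033% for Prss16, 0.00758 ± 0.00555% for Tbata and 0.19 ± 0.174% for Cd83 (SD, n = 4). From the lowest to the highest, the order of the means was Prss16, Tbata, Foxn1 and Cd83 in AR3_mut, and Tbata, Prss16, Cd83 and Foxn1 in nude. In AR3_mut, Prss16 and Tbata overlapped. Foxn1 lay above both in every AR3_mut library, and Cd83 lay above Foxn1 in every one, although their means differed by less than the SD of Cd83. Foxn1 rests on 4, 2 and 2 counts in these libraries. Its 95% counting interval on pooled counts, 0.181 to 0.829%, overlaps those of Prss16 (0.113 to 0.195%) and Tbata (0.129 to 0.228%). In nude, each gene overlapped its neighbour in this order. Scaled to the counts of 4 epithelial genes, described below, the residual level was 1.16% for Foxn1, 0.434% for Prss16, 0.446% for Tbata and 5.21% for Cd83 in AR3_mut. On that scale it was 0.448% for Foxn1, 0.0677% for Prss16, 0.0109% for Tbata and 0.291% for Cd83 in nude.

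Between AR3_mut and nude, the counting intervals of the pooled residuals show the same separation as the libraries did. For Tbata they were 0.129 to 0.228% in AR3_mut and 0.00207 to 0.0195% in nude. For Prss16 they were 0.113 to 0.195% in AR3_mut and 0.0291 to 0.0624% in nude. For Cd83 they were 1.7 to 2.97% in AR3_mut and 0.0674 to 0.346% in nude. The 2 intervals do not meet for these 3 genes. For Foxn1 they overlap, at 0.181 to 0.829% in AR3_mut and 0.141 to 0.542% in nude. The intervals cover counting error only.

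**Figure D2:**
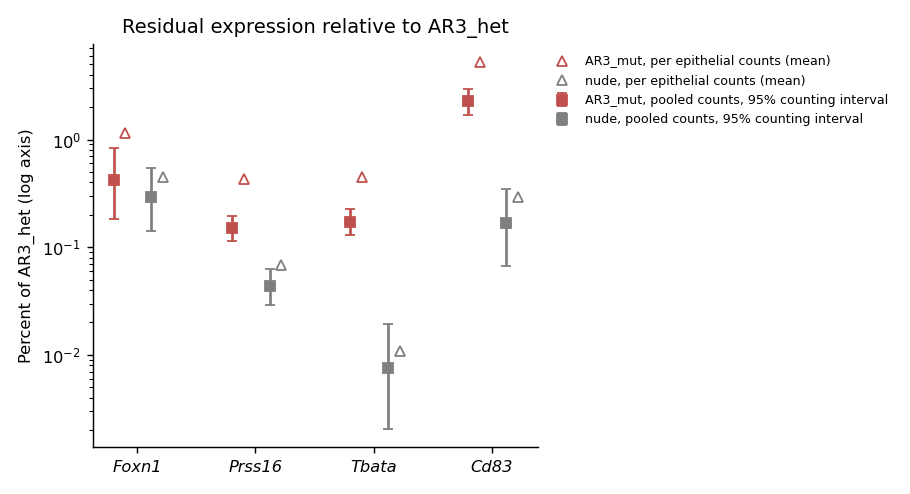
Residual expression as a percent of AR3_het (log axis) for AR3_mut, left, and nude, right, of each pair; squares are pooled TMM-scaled counts with 95% counting intervals, and open triangles are group means of counts per epithelial count. Tbata in nude is the lowest value, and the intervals of the mutants overlap for Foxn1.

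Both falls against AR3_het were large. AR3_mut over AR3_het gave log2 fold changes of −7.83 for Foxn1 (adjusted p = 3.26e-08), −9.43 for Prss16 (adjusted p = 6.23e-07), −9.24 for Tbata (adjusted p = 1.33e-07) and −5.58 for Cd83 (adjusted p = 6.35e-06), all by edgeR. Nude over AR3_het gave −8.34, −11.12, −13.54 and −9.09 for the same genes, with adjusted p of 6.41e-09, 1.2e-07, 1.03e-08 and 4.85e-07. All 4 fell in both comparisons, where 20.6% of tested genes were called lower in AR3_mut and 24.2% lower in nude (21.2% and 23.7% were called higher, and 41.8% and 47.9% in either direction), and both comparisons share the AR3_het libraries. With library totals in place of TMM, 3855 genes were called lower and 2074 higher in AR3_mut, and 4842 lower and 2153 higher in nude. Foxn1 and Cd83 passed the filter on low counts through AR3_het, where they are high, so that their falls are a description. At so few counts the SE of the fit, 0.27 for Foxn1 in AR3_mut, is smaller than counting error: the counting interval of that log2 ratio runs from −9.11 to −6.91.

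Set among all strongly expressed genes, Prss16 and Tbata were the least retained. Of 90 genes with at least 1000 CPM in AR3_het, Prss16 had the lowest residual percentage in AR3_mut and Tbata the next, and in nude Tbata was the lowest and Prss16 the next. The chemokine gene Ccl25 and Crip3 followed in both, at 0.278% and 0.304% in AR3_mut and 0.0784% and 0.121% in nude. Among these 90 genes the gap to the rest was wide. Of them, 4 kept under 1% in AR3_mut and 5 in nude (Reg3g being the other). The median was 108% in AR3_mut and 103% in nude. With a lower limit of 300 CPM, chosen after the data were seen so that all 4 genes enter, Foxn1 ranked 10 and Cd83 18 from the lowest of 422 genes in AR3_mut. At this lower limit 14 of the 422 genes kept under 1% in AR3_mut and 20 in nude, and the gap closed. In AR3_mut, Cyp2a5 (0.169%), Krtdap (0.211%), Asprv1 (0.255%) and Saa3 (0.273%) came directly after Prss16 and Tbata. In nude, Foxn1 ranked 10, Cd83 9, Prss16 3 and Tbata 2, after H2-M2, which had 0 counts.

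A share of counts within a library does not depend on how libraries are scaled to each other. Of the counts of Tbata and Prss16 together, Tbata took 52.5, 37.5 and 50% in AR3_mut 1 to 3, 16.7, 0, 8.33 and 50% in nude 1 to 4, and 45.3, 43.6 and 42.8% in AR3_het 1 to 3. Nude 4 rests on 2 counts, so its share is barely determined. On pooled counts Tbata took 47.7% of 107 counts in AR3_mut (95% exact Clopper-Pearson interval 37.9 to 57.5%), 12.1% of 33 counts in nude (3.4 to 28.2%) and 44.1% of 161627 counts in AR3_het (43.8 to 44.3%). The AR3_mut interval takes in the AR3_het value, and the nude interval lies below it. The nude interval does not meet that of AR3_mut with all libraries, but it does without AR3_mut 1 (27 to 56.8% in AR3_mut), and libraries of a group differed beyond the counting error that these intervals cover. Counts here are 3′ ends and were not divided by length, so the shares compare groups and do not rank the genes.

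The mixture of the 4 genes also differed. Cd83 took 31.5% of their 168 pooled counts in AR3_mut (24.6 to 39.2%), 14% of 50 in nude (5.82 to 26.7%) and 3.29% of 171885 in AR3_het (3.21 to 3.38%). Without AR3_mut 1 its share was 20.6% of 63 counts (11.5 to 32.7%). Foxn1 took 4.76% in AR3_mut (2.08 to 9.17%), 20% in nude (10 to 33.7%) and 2.68% in AR3_het (2.6 to 2.75%). Prss16 took 33.3% in AR3_mut (26.3 to 41%), 58% in nude (43.2 to 71.8%) and 52.6% in AR3_het (52.4 to 52.8%). The Cd83 share was above that of AR3_het in both mutants, and the intervals of AR3_mut and nude overlap. The Foxn1 share was highest in nude. These intervals cover counting error only.

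Epithelial RNA differed between libraries, and Epcam itself was lower in AR3_mut than in nude (150 ± 74.2 against 371 ± 113 CPM, log2 fold change −1.30, adjusted p = 0.0461). For this reason the 4 genes were also read per 1000 counts of Epcam, Cdh1, Krt8 and Krt18, genes of simple epithelium. Foxn1 averaged 0.562 ± 0.116 in AR3_mut (SD, n = 3), 0.217 ± 0.0976 in nude (SD, n = 4) and 48.5 ± 13.5 in AR3_het (SD, n = 3). Prss16 averaged 4.11 ± 2.65 in AR3_mut, 0.641 ± 0.4 in nude and 947 ± 150 in AR3_het. Tbata averaged 3.31 ± 1.41 in AR3_mut, 0.0813 ± 0.058 in nude and 743 ± 133 in AR3_het. Cd83 averaged 3.1 ± 2.22 in AR3_mut, 0.173 ± 0.152 in nude and 59.5 ± 17.4 in AR3_het.

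On this scale no gene of the 4 overlapped between AR3_mut and nude, Foxn1 included, at 0.48 to 0.694 in AR3_mut and 0.0955 to 0.314 in nude. The scale moves all genes, however: every AR3_mut library lay above every nude library for 29.3% of tested genes (30% without overlap in either direction), and the median log2 ratio over 12535 genes was 0.88. Relative to that shift the log2 ratios of AR3_mut over nude were 0.49 for Foxn1, 1.80 for Prss16, 4.47 for Tbata and 3.28 for Cd83. With TMM they were 0.65, 1.63, 4.40 and 3.31 relative to a median of −0.01.

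Cd83 was set beside markers of dendritic cells and B cells, which can carry it, and of macrophages and monocytes. Macrophage and monocyte markers, 13 genes in all, took 0.329, 0.0386 and 0.0291% of the counts in AR3_mut 1 to 3, 0.0105 to 0.0245% in nude and 0.0338 to 0.0802% in AR3_het. Lyz2, a lysozyme of myeloid cells, gave most of that in AR3_mut 1 and 2, with 8115 counts in AR3_mut 1, 355 in AR3_mut 2 and 50 in AR3_mut 3. The other leading genes of that list in AR3_mut were Cd14 and Csf1r, at 98.3 and 70 CPM. The sum was highest in AR3_mut 1, as Cd83 was. Cd14 had 401, 41 and 116 counts in AR3_mut 1 to 3 and C1qb had 34, 4 and 5. C1qa, C1qc, Fcer1g, Tyrobp and Fcgr3 also had most of their AR3_mut counts in AR3_mut 1, the deepest of these libraries. Csf1r did not, with 74, 151 and 95 counts in AR3_mut 1 to 3, and Mrc1 had 17, 54 and 7. Cd68 had 55, 55 and 23, and Itgam and Adgre1 had at most 4 counts in an AR3_mut library.

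Dendritic cell markers did not overlap between AR3_mut and nude, and B cell markers did. The 9 dendritic genes in the table took 0.0217, 0.019 and 0.0279% in AR3_mut 1 to 3, 0.00412 to 0.00847% in nude and 0.026 to 0.036% in AR3_het. Their leading genes in AR3_mut were Fscn1, an actin bundler that endothelium also expresses, at 208 CPM, Zbtb46 at 11.9 CPM and Ccr7 at 8.18 CPM. In nude these averaged 53.6, 5.55 and 5.24 CPM. Fscn1 gave most of the sum, with 474, 300 and 269 of 579, 340 and 295 counts in AR3_mut 1 to 3. Batf3 averaged 7.73 CPM in AR3_mut and 6.22 CPM in nude. Siglech had 3 counts over AR3_mut and Ccl22 had 2, and both had 0 over nude. Flt3 and Cd207 were at 0 counts in all AR3_mut and nude libraries, and Itgax had 6 counts over AR3_mut and 3 over nude. The 8 B cell genes took 0.00532, 0.00207 and 0.00189% in AR3_mut 1 to 3, 0.000193 to 0.00321% in nude and 0.00796 to 0.0126% in AR3_het. Among them, Cd79b averaged 17.9 CPM and Fcer2a 2.65 CPM in AR3_mut. The part of any of these cells in the Cd83 counts was not tested.

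**Figure D3:**
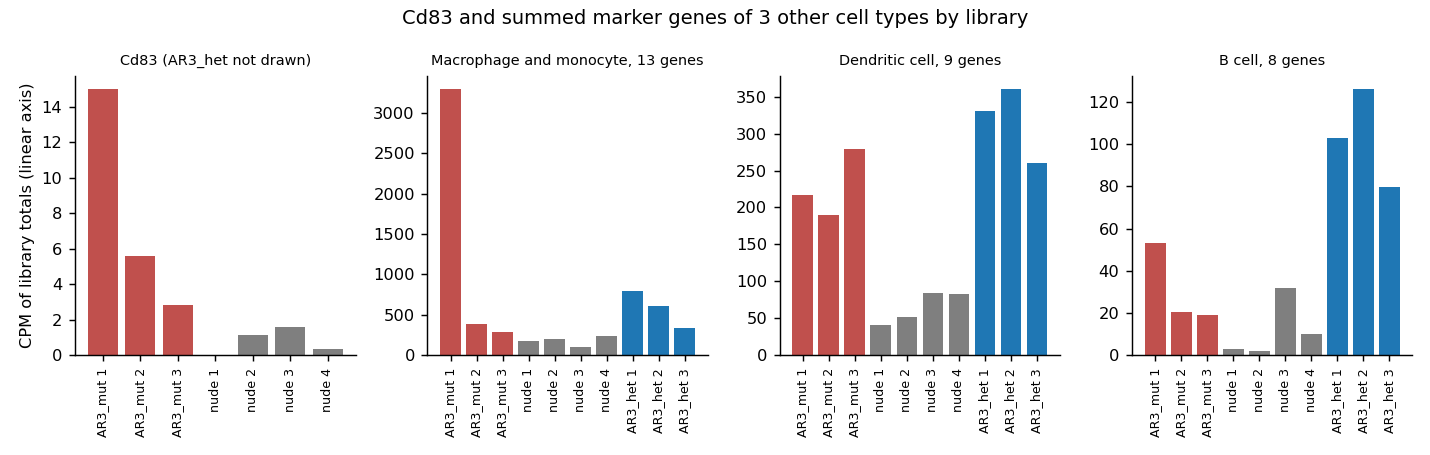
Cd83 and the summed counts of macrophage and monocyte, dendritic cell and B cell markers in each library, as CPM of library totals on linear axes of different range; bars run AR3_mut, nude, AR3_het, and AR3_het is left out of the Cd83 panel because its far higher bars would hide the others. AR3_mut 1 is the highest AR3_mut bar for Cd83, macrophage and monocyte markers and B cell markers, but not for dendritic cell markers.

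Thymocyte RNA was scarce in both mutants. The 14 thymocyte genes took 0.00246 to 0.003% of the counts in AR3_mut, 0.000309 to 0.00118% in nude and 0.103 to 0.187% in AR3_het. In AR3_mut they were led by Cd247 at 18.5 CPM, Lck at 8.54 CPM and Zap70 at 0.991 CPM, while Cd3d, Cd3e, Cd3g, Cd8b1 and Rag1 were among 8 with 0 counts. The 11 medullary TEC genes took 0.0398 to 0.126% in AR3_mut, 0.0705 to 0.149% in nude and 0.234 to 0.343% in AR3_het. They were led in AR3_mut by Cldn4, Cldn3 and Krt14 at 242, 219 and 213 CPM. Cldn4 and Cldn3, also in the epithelial list, were the only ones of the 11 with a higher mean in AR3_mut than in AR3_het. Aire, Fezf2 and Spib averaged 1.29, 0.26 and 15.7 CPM in AR3_mut and 0.24, 0 and 2.59 CPM in nude. In AR3_het these averaged 251, 257 and 279 CPM. Keratinocyte genes, which matter because hair follicle cells also use Foxn1, were led in AR3_mut by Sfn, Lgals7 and Krt14 and took 0.0897 to 0.189% in AR3_mut, 0.11 to 0.184% in nude and 0.386 to 0.482% in AR3_het.

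Other genes known to depend on Foxn1 or to mark cortical TEC were read in the same comparisons, as a list of 18 that leaves out the 4. Of these, 6 were higher in AR3_mut than in nude and 0 were lower, where 7.6% of all tested genes were higher and 3.71% lower, with a median log2 fold change of 0.99 against 0.00 over all tested genes. Without AR3_mut 3, 3 were called, and in the fit to only the 2 groups compared 4 were. The 4 with the largest change among them were Il7, H2-Aa, Ccl25 and Enpep. Il7, a cytokine that thymocytes need, averaged 4.61 ± 2.5 CPM in AR3_mut and 0.522 ± 0.148 CPM in nude (log2 fold change 2.95, adjusted p = 0.0294). That call rests on 5, 12 and 5 counts in AR3_mut 1 to 3 and 2, 1, 1 and 1 in nude 1 to 4. The 95% counting interval of the Il7 log2 ratio ran from 1.54 to 4.73, and Il7 passed the filter on low counts through AR3_het. Ccl25, a chemokine for thymus-seeding progenitors, averaged 11.2 ± 4.14 CPM in AR3_mut and 3.16 ± 1.2 CPM in nude (1.84, adjusted p = 0.00541). H2-Aa, a class II chain, averaged 260 ± 178 CPM in AR3_mut and 69.9 ± 27.4 CPM in nude (1.90, adjusted p = 0.0164). Enpep, the Ly51 antigen of cortical TEC and also of pericytes and vessels, averaged 43.6 ± 7.05 CPM in AR3_mut and 13.4 ± 8.6 CPM in nude (1.71, adjusted p = 0.0292). Dll4 and Cxcl12, the other called genes, are also made by endothelium, whose markers were higher in AR3_mut. The part of endothelium in these 2 calls was not tested.

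Against AR3_het, 13 of the 18 genes fell in AR3_mut and 3 rose (20.6% and 21.2% of all tested genes), with a median log2 fold change of −2.75 against −0.04 over all tested genes. In nude 14 fell and 3 rose (24.2% and 23.7% of all tested genes), with a median of −2.94 against −0.03. The 3 that rose were Kitl, Pdpn and Tgfb2 in both mutants, genes that stromal cells also express. Psmb11, the thymoproteasome subunit, had 1 count in AR3_mut, 0 in nude and 2755 in AR3_het. Its log2 ratio of AR3_mut over AR3_het was −10.15 (95% counting interval −15.46 to −7.67), and it was at least 678-fold lower in nude, with a floor of 3 counts over the group. Ccl25 fell by 8.43 on the log2 scale in AR3_mut (adjusted p = 1.33e-07). Ly75, an endocytic receptor of cortical TEC and dendritic cells, had 0 counts in AR3_mut against 92 in AR3_het, at least 12.7-fold lower. Psmb11, with 1 count at most in either mutant, does not allow the mutants to be compared. Psmb11, Ly75, Ciita, Cd40 and Il7 passed the filter on low counts through AR3_het, where they are high, so that their falls are a description. The counts of falling genes above include them.

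**Figure D4:**
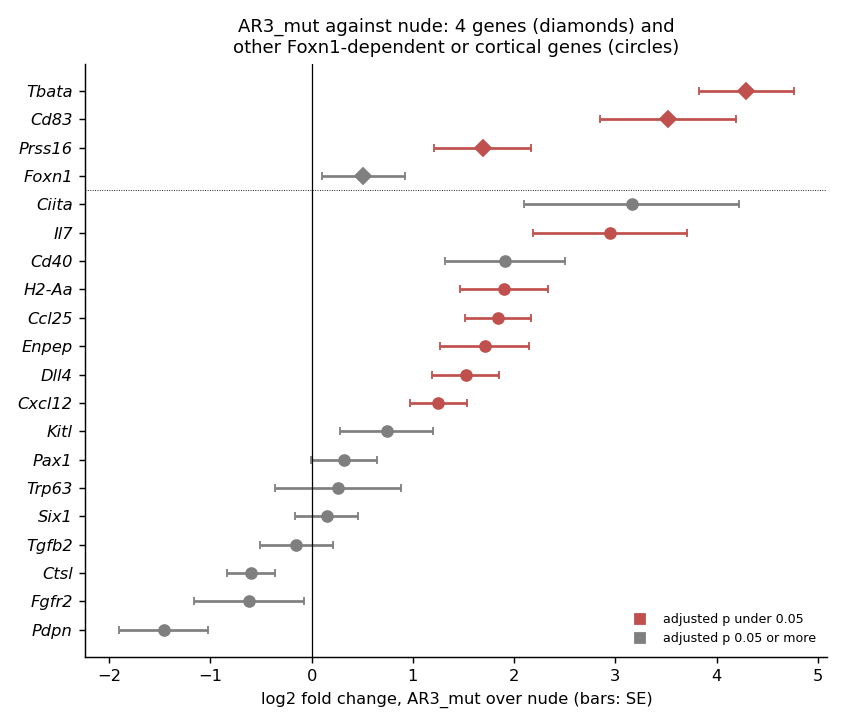
Log2 fold change of AR3_mut over nude from edgeR (bars are SE) for the 4 genes, diamonds, and for those other Foxn1-dependent or cortical genes that had more than 3 counts in either group, circles; red marks an adjusted p under 0.05. Tbata is farthest to the right at 4.29, and Foxn1, at 0.51, is the gene of the 4 that did not pass. For these 2 genes the bars are narrower than counting error.

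The MHC class II genes and other partners of Cd83 had 12 genes in the table and 11 tested, and H2-Aa and Ciita are also in the list above. In AR3_mut against nude 4 were higher and 1 lower, where 7.6% and 3.71% of all tested genes were, and the median log2 fold change was 1.56 against 0.00 over all tested genes. H2-DMb1, a chain of the peptide editor, averaged 37.4 ± 19.9 CPM in AR3_mut and 6.15 ± 1.73 CPM in nude (2.63, adjusted p = 0.00112). Cd74, the invariant chain, averaged 570 ± 287 CPM in AR3_mut and 211 ± 98.4 CPM in nude (1.43, adjusted p = 0.0338). March8, the ligase that Cd83 opposes, was lower, at 33.3 ± 0.668 CPM in AR3_mut and 53.4 ± 10.7 CPM in nude (−0.68, adjusted p = 0.0417). No class II gene was called lower with library totals in place of TMM, with the replicate block or in the fit to the 2 groups, so the March8 call is lost there. Of the fits that left out 1 library, only those without AR3_het 3 and without nude 1 kept a lower call in this list. H2-Aa and H2-Ab1 (1.56, adjusted p = 0.05 after rounding) were the other called genes. The 5 calls depend on single libraries: 1 was left without AR3_mut 1, 2 without AR3_mut 3, AR3_het 1, nude 1 or nude 2, and 3 without AR3_het 2. H2-Aa, Cd74 and H2-Ab1 are also abundant in dendritic cells, macrophages and B cells, whose part in these values was not tested.

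Against AR3_het, 10 of the 11 fell in AR3_mut and 10 in nude, where 20.6% and 24.2% of all tested genes fell, and 0 rose. The exceptions were H2-Ob in AR3_mut (−1.49, adjusted p = 0.0546) and March8 in nude (−0.04, adjusted p = 0.876). Ciita, the transactivator of class II genes, had 7 counts in AR3_mut, 1 in nude and 458 in AR3_het. Cd80, a costimulator, had 0 counts in both mutants, which puts it at least 23.4-fold lower in AR3_mut and at least 41.8-fold lower in nude. H2-Oa, a chain of the H2-O modulator, fell by 6.71 on the log2 scale in AR3_mut (adjusted p = 0.00506). Cd80, Ciita, H2-Oa and H2-Ob passed the filter on low counts through AR3_het, where they are higher, so that their falls are a description. The summed class II list took 0.0645 to 0.224% of the counts in AR3_mut, 0.0322 to 0.0808% in nude and 2.7 to 3.44% in AR3_het.

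Genes with the most similar profile over the 10 libraries were found by Pearson correlation of log2(CPM + 1), as a description. The libraries fall into 3 groups and AR3_het is far from the others, so high values are common: 669 of 12395 genes reached 0.95 with Foxn1, 618 with Prss16, 600 with Tbata and 305 with Cd83. Foxn1 was most like Fam213b, Tfap2b, Snap91, Rptn and Krt6b, with r of 0.9972 to 0.9974, and the last 4 of these had 0 counts in both mutants. Prss16 was most like Gbp8, Slc46a2, Crip3, H2-M2 and Il1rn (0.9904 to 0.9971). Tbata was most like Cdhr5, Ptprn2, Il1rn, H2-M2 and Mgat5b (0.9959 to 0.9976). These averaged 0.912 to 2.15 CPM in AR3_mut and 0 to 0.09 CPM in nude. Chosen for likeness to Tbata, they share its difference between the mutants by selection. H2-M2, a nonclassical class I chain, averaged 1.88 CPM in AR3_mut, 0 in nude and 306 in AR3_het. Cd83 was most like Fndc7, Synm, Npl, Parp8 and Fcgbp (0.988 to 0.9916). Among the 4 genes, r ran from 0.954 between Foxn1 and Cd83 to 0.9887 between Prss16 and Tbata.

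The nearest tested genes on each side of the 4 were read as well. Beside Foxn1, Unc119, a lipid-binding trafficking gene 8.41 kb away, averaged 31.5 ± 16.6 CPM in AR3_mut, 34.7 ± 7.38 CPM in nude and 89.7 ± 8.79 CPM in AR3_het. It fell in AR3_mut (−1.46, adjusted p = 0.00256) and in nude (−1.38, adjusted p = 0.00151). Pigs, a GPI transamidase subunit gene 14.8 kb away, did not pass in either, with −0.32 in AR3_mut (adjusted p = 0.156) and 0.19 in nude (adjusted p = 0.335). On the other side, Slc13a2os had 0 counts in AR3_mut and nude and 57, 37 and 43 counts in AR3_het 1 to 3. It was at least 18.9-fold lower in AR3_mut and at least 33.7-fold lower in nude. It passed the filter on low counts through AR3_het alone, so that its fall is a description. Slc13a2, a dicarboxylate transporter gene 10.5 kb from Foxn1, had 23, 1 and 1 counts in AR3_mut 1 to 3, 0 counts in nude and 20, 14 and 22 counts in AR3_het. Its level in AR3_mut therefore came from AR3_mut 1.

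The neighbour of Tbata at 24.3 kb, Sgpl1, a sphingosine phosphate lyase gene, also fell in both mutants. Sgpl1 averaged 48.7 ± 3.06 CPM in AR3_mut, 58.8 ± 0.32 CPM in nude and 976 ± 114 CPM in AR3_het. Its log2 fold changes against AR3_het were −4.32 in AR3_mut (adjusted p = 9.34e-08) and −4.05 in nude (adjusted p = 1.92e-08), and AR3_mut over nude was −0.27 (adjusted p = 0.276). Pcbd1, 77.6 kb away, fell too, by 2.07 in AR3_mut and by 1.66 in nude on the log2 scale. On the other side, Adamts14 and Pald1 were higher in AR3_mut than in nude. Adamts14 averaged 4.69 ± 1.22 CPM in AR3_mut and 1.36 ± 0.775 in nude (adjusted p = 0.0464). Pald1 averaged 35.7 ± 9.69 CPM in AR3_mut and 17.8 ± 5.49 in nude (adjusted p = 0.0402). Around Cd83, Mcur1 and Ranbp9 at 225 and 303 kb did not pass in any comparison. On the other side A330076C08Rik at 383 kb had 0 counts in both mutants and 59 in AR3_het, at least 8.13-fold lower in AR3_mut and at least 14.5-fold lower in nude. A330076C08Rik also passed the filter on low counts through AR3_het alone, so that its fall is a description. Jarid2 at 926 kb fell in nude against AR3_het (−1.15, adjusted p = 0.00863). Around Prss16, the histone gene Hist1h4i at 30.9 kb was lower in AR3_mut than in nude (−1.33, adjusted p = 0.0379), the opposite sign to Prss16, and Hist1h2ag, Hist1h2ak and Zkscan8 did not pass between the mutants.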

How the data were processed

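The authors deposited 1 table of raw counts per gene for 10 libraries, per the file headers. Without giving roles, the submitters' processing notes list HTSeq, STAR 2.4.2a, DESeq2, cutadapt, bcl2fastq and the build mm10. The sources used here do not state how molecular identifiers were handled. The table's 20 normalized or transformed per-library columns were left out. The deposited log2 fold changes and p-values are the authors' own.

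Counts were analysed with edgeR 4.0.16 in R 4.3.3: filterByExpr (minimum count 10, total 15), TMM scaling of library totals, and 1 robust quasi-likelihood fit of group over all 10 libraries. Tests were two-sided, adjusted by Benjamini-Hochberg over 12912 genes, with a threshold of 0.05. SE is the log2 fold change divided by the root of F. Counting intervals are exact, at 95%. Every pair of libraries of a group differed beyond counting error (chi-square per degree of freedom 4.29 or more). Coordinates come from GENCODE M21 (GRCm38), which names 15241 of the symbols. The fit was tested on simulated data, with changes set between AR3_mut and AR3_het in well-expressed genes. That test does not cover levels of a few CPM or AR3_mut against nude.

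Cell type marker lists, 10 with the immediate-early genes, are given as shares of library totals. The 4 genes, the lists and the comparisons were chosen with earlier results of these data known. The genes named were, besides the 4, from the list of Foxn1-dependent and cortical genes and the list of class II genes, up to 4 with the largest called change between the mutants and up to 3 against AR3_het; for each gene the 5 most correlated genes and the nearest 2 tested genes on each side; and the 3 highest markers per cell type, of which 1 is not reported here. Predicted gene models were passed over. Dll4, Cxcl12, Kitl, Pdpn, Tgfb2, H2-Ab1, H2-Ob, Mrc1, A330076C08Rik, Reg3g, Epcam, Jun and the marker genes at or near 0 were named outside this rule, after their values were seen. So were Cd40, Aire, Fezf2, Spib, Batf3, Cyp2a5, Krtdap, Asprv1, Saa3 and the macrophage and monocyte genes beyond the 3 highest. Alternatives were RLE scaling, library totals, no filter, DESeq2 1.42.0, limma-voom 3.58.1, fits to 2 groups, a replicate block and leaving out each library.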

Additional observations from a re-analysis of the deposited data

Results flagged for a closer look

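The share of counts taken by the 12 epithelial genes in nude had its highest library, nude 3 at 0.797%, far from the other nude libraries at 0.597 to 0.626%, a gap of 0.855 of the whole range. Chance flags about 1 in 20 groups of 4 in this way. Among the nude libraries nude 3 was also the highest for Prss16 (6.06 CPM) and for Cd83 (1.65 CPM) and the lowest for Foxn1 (0.551 CPM). Groups of 3 libraries were too small for this rule.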

How the results depend on the processing

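The replicate numbers gave no sign of pairing the libraries: deviations of same-numbered libraries correlated at −0.31 to 0.157. A batch shared by libraries was not tested. With the replicate block the genes called between AR3_mut and nude numbered 948 against 1460, and Prss16 stood at 1.30 (adjusted p = 0.0636). Fitted to only the 2 groups compared, 952 genes were called, Prss16 stood at 1.68 (adjusted p = 0.115) and the class II list had 2 calls against 5; Foxn1 and Cd83 gave no value there because they fell under the filter on low counts. Leaving out 1 library at a time, Prss16 ran from 1.31 to 2.11 and lost its call in 8 of 10 fits, the genes called from 883 (without nude 1; 904 without AR3_mut 1) to 1993, the Foxn1-dependent and cortical list from 3 (without AR3_mut 3) to 9 calls, the class II list from 1 to 7, and the Cd83 share in AR3_mut from 20.6 to 34.7% (an alternative chosen after seeing the data). Scaled to epithelial counts, residuals were 1.16% for Foxn1, 0.434% for Prss16, 0.446% for Tbata and 5.21% for Cd83 in AR3_mut, and 0.448% for Foxn1 in nude. Library totals in place of TMM put the median log2 ratio of all genes at −0.31 in AR3_mut and −0.37 in nude against AR3_het. Among genes called in AR3_mut against AR3_het, higher calls outnumbered lower ones (2741 and 2661) but not under RLE (2624 and 2861), DESeq2 (2730 and 2913), library totals, no filter, limma-voom or the fit to 2 groups. In these alternatives no log2 fold change of the 4 genes turned its direction, Tbata and Cd83 kept their calls, and the other fits (RLE, no filter, DESeq2, limma-voom) kept that of Prss16. The cause of these changes was not tested. Depth limits Foxn1 in the mutants and every nude value, which rest on 0 to 11 counts a library.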

Other observations

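The 12 immediate-early genes made up 2.61 to 3.1% of the counts in AR3_mut, 1.82 to 2.76% in nude and 0.372 to 0.56% in AR3_het. All 12 were higher in AR3_mut than in AR3_het and all 12 were higher in nude than in AR3_het, where 21.2% and 23.7% of all tested genes were called higher, while 0 were called between AR3_mut and nude by edgeR. They include Fos, Jun and Atf3, which respond to dissociation among other stimuli. The residual levels of the 4 genes were measured against this difference in RNA state between the mutants and AR3_het, and its part in them was not tested.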
